A study of Homo sapiens with 12 samples.

Results

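The late mRNA response was described by setting the mRNA libraries of HEK293T cells taken at 360 min of GSK-A1 (replicates 1 and 2) against those taken at 0 min (replicates 1 and 2). These are 4 of the 12 libraries of the series, chosen by the assay and time in their titles. HEK293T is a transformed human embryonic kidney line, and GSK-A1 inhibits PI4KA, the lipid kinase that makes phosphatidylinositol 4-phosphate at the plasma membrane. All 12 libraries are labelled wild type and carry the same treatment label, so a 0 min library is a reference only by its time. Nothing in the labels says that replicates came from separate cultures, and the p-values below measure the spread between these libraries, which may be technical. The other libraries are mRNA at 60 min and ribosome-protected fragments (RPF, the mRNA pieces shielded by a translating ribosome) at the same 3 times, with 2 replicates each.

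The phosphatidylinositol 4-phosphate made by PI4KA at the plasma membrane is exchanged for phosphatidylserine by lipid transfer proteins and is the precursor of other signalling phosphoinositides. The level of an mRNA in a cell is set by its synthesis and its decay, so a level measured after hours of treatment can differ from one measured early. Footprints report on translation of the same transcripts and come from separate libraries.

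Transcripts appear in the deposited tables under Ensembl identifiers that the sources used here do not pair with genes: 0 of 18338 found a symbol. No gene, pathway or cell type marker is therefore named, HEK293T identity was not checked against its markers, and no sequence or genome position is given. The transcripts are described instead by abundance, by share of the counts and by their footprints. The identifiers printed are 2 higher and 2 lower ones: in each direction the one with the smallest p-value and the one with the largest change in share.

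Depth in mRNA was 762076 and 719846 counts at 0 min, 853782 and 1002695 at 60 min, and 429026 and 593334 at 360 min. Levels are given as CPM, counts relative to library totals adjusted by edgeR's trimmed-mean scaling. On that scale a single count was worth 2.81 and 1.78 CPM in 360 min replicates 1 and 2. With the raw totals it would be 2.33 and 1.69 at 360 min against 1.31 and 1.39 at 0 min. Levels are not per length, so ranks and shares are those of counts and not of molecules. They are also relative within a library, so a higher share can be a rise of that transcript or a fall of others. Neither RNA per cell nor cell number can be read from them. The replicates were not close. The correlation of log2(CPM + 1) across 9693 transcripts was 0.823 between the 0 min replicates and 0.779 between the 360 min replicates. It reached 0.921 between 0 min replicate 1 and 60 min replicate 2. With 360 min replicates 1 and 2 it was 0.830 and 0.815 for 0 min replicate 1, and 0.7665 and 0.729 for 0 min replicate 2. By this measure 0 min replicate 1 was closer to each 360 min library than those were to each other. Results that rest on 1 library are given without it below.

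At 360 min the mRNA counts were gathered in fewer transcripts. The 10 most abundant transcripts of each library took 9.03% (95% exact Clopper-Pearson interval 8.97 to 9.10) and 10.7% (10.7 to 10.8) of the counts at 0 min, 9.29% and 8.07% at 60 min, and 14.1% (13.99 to 14.2) and 14.7% (14.6 to 14.8) at 360 min. These intervals cover counting error only. Both 360 min libraries lay above the other 4 mRNA libraries. The number of transcripts that together held 50% of the counts was 405 and 406 at 0 min, 438 and 448 at 60 min, and 240 and 354 at 360 min. With 2 libraries against 2, an exact two-sided permutation test cannot give a p under 0.333, so none of these differences can pass 0.05. The 360 min replicates shared 9 of their 10 most abundant transcripts, and the 0 min replicates shared 3. Across the times, 0 min replicate 1 shared 5 with each 360 min library. For 0 min replicate 2 it was 3 and 2 with 360 min replicates 1 and 2. Of the 100 most abundant, the 0 min replicates shared 67 and the 360 min replicates 74. Pairs across the times shared 55 to 85 of these, the most being 0 min replicate 1 with 360 min replicate 1.

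The share of abundant transcripts was then taken with the ranking made elsewhere. Transcripts were ranked by their level in the 60 min mRNA libraries, which take no part in the contrast. The 10 most abundant then held 8.29% and 7.75% at 0 min and 9.54% and 5.71% at 360 min, so the groups overlapped. The 100 most abundant held 32.5% and 29.5% at 0 min and 36.5% and 29.8% at 360 min (exact permutation p = 0.667 for 2 libraries against 2), again overlapping. When transcripts were ranked by their footprints at 0 min instead, the first 1000 held 48.4% and 51.2% of the mRNA counts at 0 min and 45.0% and 40.8% at 360 min. Both 360 min libraries lay below both 0 min libraries, with a difference in means of −6.88 points (exact permutation p = 0.333, the smallest possible). This did not hold for the very first of that ranking: the first 10 held 3.19% and 3.06% at 0 min and 3.15% and 3.56% at 360 min, a difference of 0.225 points with overlapping times.

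A gain or loss is used here for the difference in a transcript's mean share of the mRNA counts between 360 and 0 min. These values chose the transcripts in this and the next 3 paragraphs and are a description with no test. The gains of all 6822 transcripts that gained summed to 24.2 percentage points, and the 9 largest gains, each of at least 0.5 points, made up 8.68 points or 35.9% of that sum. The smallest of the 9 was 0.507 points and the next below was 0.306 points. The 9 transcripts together held 6.33% and 3.57% of the counts at 0 min, 3.02% and 3.84% at 60 min, and 13.2% and 14.05% at 360 min. Both 360 min libraries lay well above the other 4, and the 60 min libraries stood within or below the 0 min pair. At 60 min the 9 largest gains over the same 0 min libraries summed to 1.87 points.

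**Figure D1:**
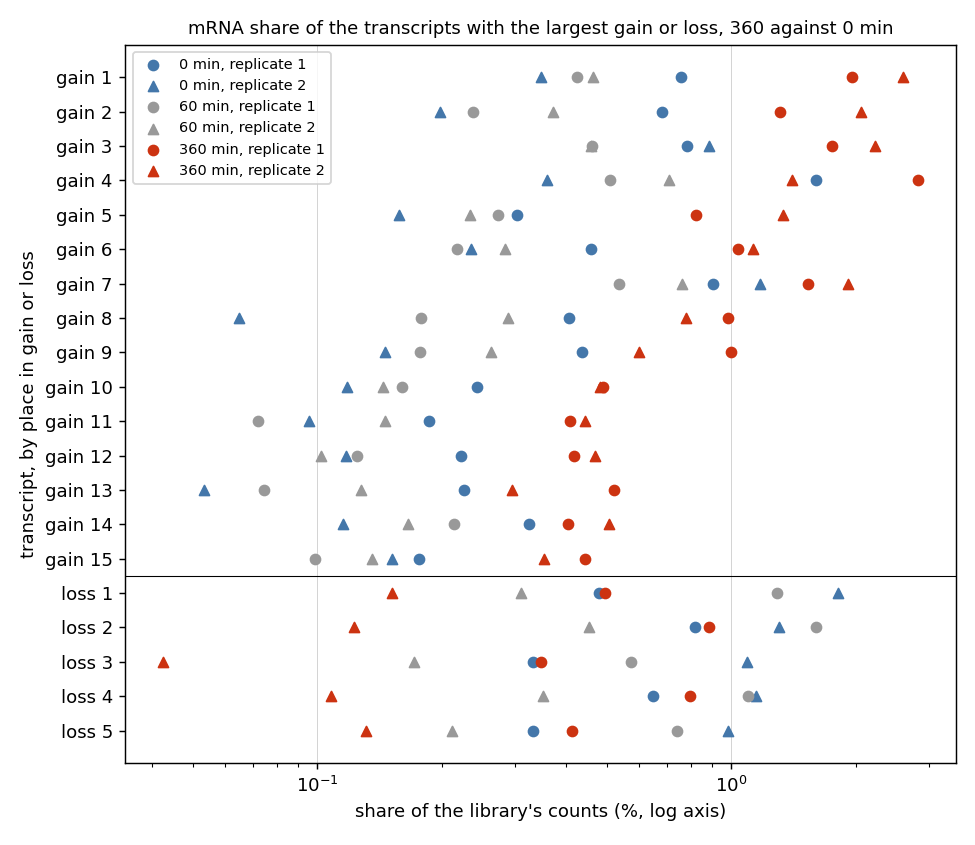
Share of each mRNA library's counts (%, log axis) for the 15 transcripts with the largest gain and the 5 with the largest loss in mean share from 0 to 360 min, with circles for replicate 1, triangles for replicate 2 and colours for time. For 14 of the 15 gains both 360 min libraries lie above both 0 min libraries, and none of the 5 losses separates the 2 times. Of all tested transcripts, 19.8% were higher and 19.1% lower without overlap. The contrast itself chose the transcripts shown, so nothing is read from these counts.

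The largest gain belonged to ENST00000342929, at place 19 by abundance at 60 min and place 1 at 360 min. Its mRNA level was 7388 and 3641 CPM at 0 min, 4185 and 4308 CPM at 60 min, and 23510 and 27430 CPM at 360 min. Both 360 min libraries were high and the other 4 were low. The means were 5514 ± 2649 CPM (SD, n = 2) at 0 min and 25470 ± 2770 CPM at 360 min, a log2 change of 2.21 (SE 0.63) with an adjusted p of 0.558 in edgeR's quasi-likelihood test over all transcripts. The DESeq2 Wald test, an alternative, gave the same log2 change with an adjusted p of 0.0153. Leaving out 1 library at a time gave log2 changes of 1.78 to 2.85.

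The second gain went from shares of 0.680% and 0.198% at 0 min to 1.31% and 2.06% at 360 min. The third was steadier at the start, at 0.781% and 0.886% against 1.75% and 2.23%. The fourth differed from the rest, since its 0 min replicates stood at 1.61% and 0.359% and its 360 min replicates at 2.82% and 1.41%, so that the times overlapped. It was the most abundant transcript of 0 min replicate 1 and of 360 min replicate 1 in spite of that overlap. The fifth gain had the highest log2 change of the 9, 2.37 (SE 0.60), from 0.304% and 0.158% to 0.823% and 1.34%, with an edgeR adjusted p of 0.558 and a DESeq2 adjusted p of 0.00676. The sixth went from 0.458% and 0.236% to 1.04% and 1.13%, and the seventh from 0.905% and 1.17% to 1.53% and 1.91%. The eighth and ninth had their lowest mRNA shares in 0 min replicate 2, at 0.0647% and 0.146%, against 0.777% and 0.600% in the lower of the 360 min replicates. In 8 of the 9 the times did not overlap, where 19.8% of all tested transcripts were higher without overlap, but the contrast itself chose the 9 and nothing is read from that count. The share in 0 min replicate 2 was below that in 0 min replicate 1 for 7 of them.

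All 9 were among the 100 most abundant transcripts at 60 min, but 6 of them had very few footprints. Their shares of the mRNA counts at 60 min were between 0.220% and 0.610%, and their shares of the RPF counts were between 0.00353% and 0.0105%. For ENST00000342929 the 0 min RPF libraries held 17 and 23 counts against 5750 and 2500 counts in mRNA. The other 3, at places 3, 7 and 8, had RPF shares of 0.251%, 0.521% and 0.223% at 60 min. The footprints took no part in choosing the 9 transcripts. The region of a transcript over which reads were counted is not given in the sources used here.

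**Figure D2:**
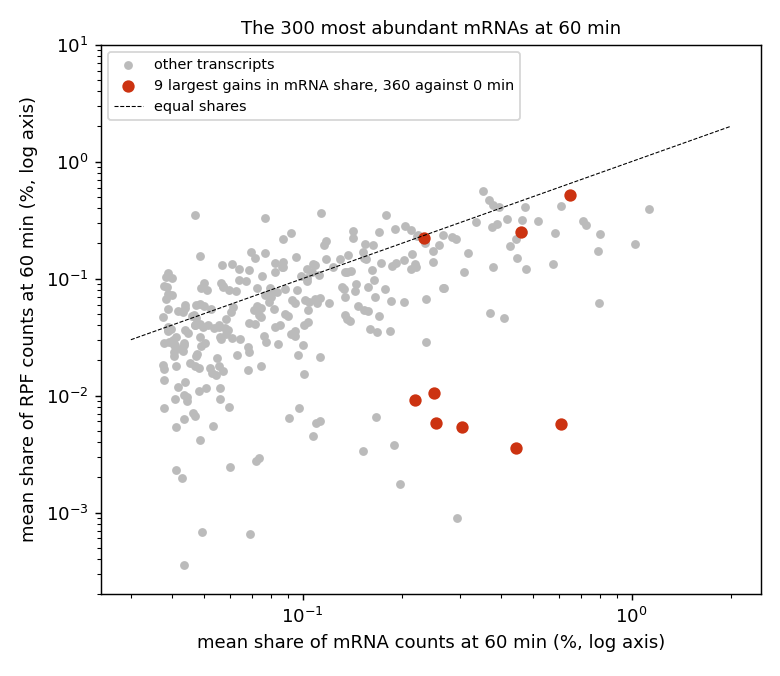
Mean share of the RPF counts against mean share of the mRNA counts at 60 min (%, log axes) for the 300 most abundant mRNAs at 60 min, with the 9 largest gains in mRNA share in red and equal shares as a dashed line. Of the 9, 6 lie at RPF shares of 0.0105% or less, apart from most transcripts of similar mRNA share.

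Footprints of the 9 transcripts were then compared between 360 and 0 min, a readout that did not choose them. Of all 8632 transcripts tested in both assays, RPF libraries at 360 min lay above both 0 min libraries for 1190, or 13.8%, and below both for 1151, or 13.3%. Among the 9 the RPF groups separated upward for 2 and downward for 0. The fourth gain was one of them, with RPF shares of 0.00498% and 0.00542% at 0 min and 0.0104% and 0.0113% at 360 min, a log2 change of 1.21 (SE 0.36) with an edgeR adjusted p of 0.9999. The other was ENST00000342929, whose RPF level was 15.7 and 25.5 CPM at 0 min and 32.2 and 50.5 CPM at 360 min, a log2 change of 1.00 (SE 0.48, edgeR adjusted p = 0.9999) on 17 to 27 counts. The difference between its RPF and mRNA changes was −1.26 (SE 1.05) on the log2 scale, with an adjusted p of 0.905 in edgeR's interaction test.

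All losses in share summed to −24.2 points, the same size as all gains. The largest single losses were smaller than the largest gains, and the 5 largest did not separate the times. The largest belonged to ENST00000554240, the most abundant mRNA at 0 min by mean level and at place 32 at 360 min. It stood at 4699 and 18960 CPM at 0 min, 12700 and 2875 CPM at 60 min, and 5976 and 1594 CPM at 360 min. The 0 min and 360 min groups overlapped, since 360 min replicate 1 was above 0 min replicate 1, and the log2 change was −1.64 (SE 0.97, edgeR adjusted p = 0.621). Without 0 min replicate 2 it was −0.31 and without 360 min replicate 2 it was −0.93, whereas without 0 min replicate 1 it was −2.27 and without 360 min replicate 1 it was −2.85. The 5 largest losses together held 2.61% and 6.33% of the counts at 0 min, 5.30% and 1.50% at 60 min, and 2.94% and 0.556% at 360 min. These 5 transcripts were high in 0 min replicate 2 and 60 min replicate 1 and low in 360 min replicate 2 and 60 min replicate 2. Their RPF shares summed to 1.26% and 0.894% at 0 min and to 1.00% and 3.45% at 360 min. In RPF the library that stood apart was 360 min replicate 2, on the high side. The mRNA library of that name, a separate one, held the lowest mRNA share.

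Across all transcripts, 9693 were tested for mRNA at 360 against 0 min and 0 (0%) had an adjusted p under 0.05 in edgeR's quasi-likelihood test. The smallest adjusted p was 0.558. At an unadjusted p under 0.05 there were 865 transcripts, of which 479 (4.94% of those tested) were higher and 386 (3.98%) lower. The libraries of the times did not overlap for 1918 transcripts that were higher (19.8%) and 1850 that were lower (19.1%). The median log2 change was −0.03, the middle 50% of transcripts lay between −0.55 and 0.44, and the median SE was 0.54. DESeq2 called 19 transcripts at an adjusted p under 0.05, 17 higher and 2 lower, having adjusted over the 1425 transcripts that its own filter on mean level kept. Of these 19, 4 were among the 9 largest gains and the times did not overlap for 17. The same libraries made the calls, so nothing is read from these 2 counts.

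The balance of directions was not stable. With library totals in place of trimmed-mean scaling, the median log2 change of all transcripts was −0.19, and 266 transcripts were higher and 608 lower at an unadjusted p under 0.05. Of the transcripts at that level, 55.4% were higher as first computed, 30.4% with library totals and 46.5% with upper-quartile scaling. Without 0 min replicate 1 it was 42.0%, without 360 min replicate 1 it was 46.2% and without 360 min replicate 2 it was 45.0%. No statement is therefore made on whether more mRNAs were higher or lower at 360 min.

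**Figure D3:**
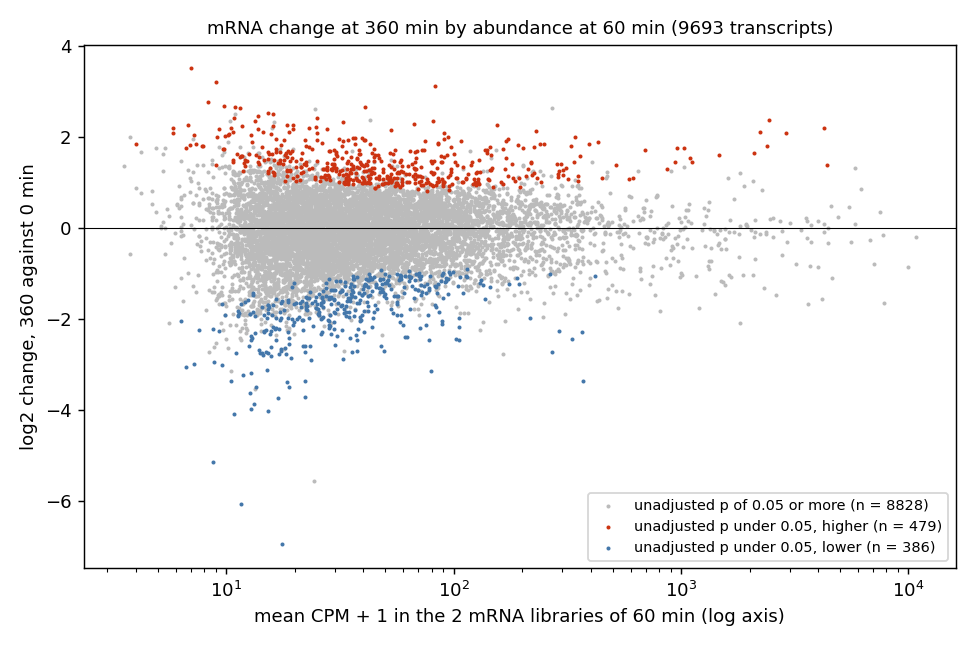
mRNA log2 change at 360 against 0 min for 9693 transcripts (y axis) by mean CPM + 1 in the 60 min mRNA libraries (x axis, log), with the 479 higher and 386 lower transcripts at an unadjusted p under 0.05 in colour. The lower ones become scarce to the right, and there are 0 among the 220 transcripts over 500 CPM. Decreases without such a p are present there. Between 500 and 1000 CPM, 9 transcripts have a log2 change of at least 1 and 10 one of −1 or less. Over 1000 CPM these numbers are 16 and 18.

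Higher and lower transcripts were next described by their level. The 479 higher transcripts had median levels of 45.0 and 39.3 CPM at 0 min, 46.2 and 40.7 CPM at 60 min, and 98.2 and 112 CPM at 360 min. The 386 lower transcripts had medians of 33.4 and 40.8 CPM at 0 min, 32.3 and 31.0 CPM at 60 min, and 11.2 and 12.4 CPM at 360 min. At 60 min the median of each set stood near its 0 min level, although the 360 and 60 min comparisons share the 0 min libraries. By abundance at 60 min, which did not choose them, 4.41% of the 3723 transcripts between 20 and 50 CPM were higher and 4.81% were lower. Between 200 and 500 CPM, 6.92% of 448 were higher and 1.79% lower. Over 1000 CPM, 8.87% of 124 were higher (11 transcripts) and 0% lower. These 11 were all among the 15 largest gains described above. Decreases were present there too: 16 of the 124 had a log2 change of at least 1 and 18 had one of −1 or less. Yet the median log2 change over 1000 CPM was −0.07, so most transcripts there were not higher.

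Transcripts with few footprints per mRNA had the higher fitted mRNA changes, though not between every pair of libraries. For each transcript the RPF level at 60 min was divided by the mRNA level at 60 min, as log2 of (CPM + 1) in each, from libraries outside the contrast. These are not free of the variation seen at 0 min, given the correlation of 0.921 noted above. The limits of the ratio classes were chosen after the values were seen. In the 81 transcripts with a log2 ratio under −4, meaning the fewest footprints per mRNA, the median log2 change at 360 min was 1.09, with 34.6% higher and 0% lower at an unadjusted p under 0.05. In the 468 transcripts between −4 and −2 the median was 0.36, with 16.7% higher and 1.07% lower. In the 1337 between −2 and −1 the median was 0.00, with 6.51% higher and 2.84% lower. In the 3176 between −1 and 0 the median was 0.03, with 5.16% higher and 3.34% lower. In the 3168 between 0 and 1 the median was −0.06, with 2.84% higher and 4.89% lower. In the 1463 with a ratio over 1, those with most footprints per mRNA, the median was −0.25, with 2.19% higher and 5.60% lower. Over all tested transcripts the shares were 4.94% higher and 3.98% lower, and the median was −0.03.

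**Figure D4:**
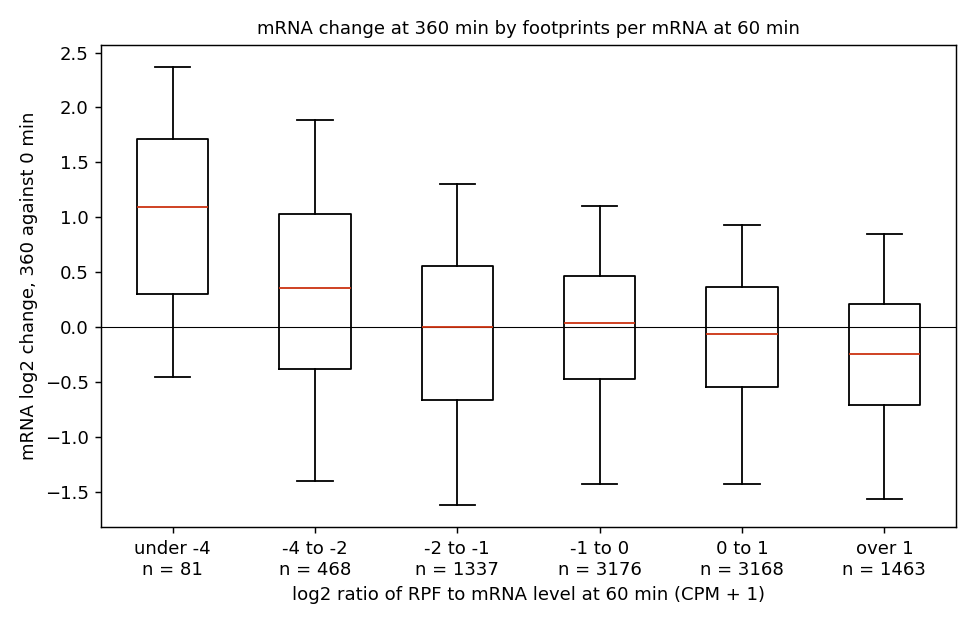
mRNA log2 change at 360 against 0 min (y axis) in 6 classes of the log2 ratio of RPF to mRNA level at 60 min (x axis, with the number of transcripts). Lines mark medians, boxes the middle 50% and whiskers the 5th to 95th percentiles; the median is 1.09 in the lowest class and −0.25 in the highest.

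The medians did not fall at every step, since that of the class between −2 and −1 was below that of the class between −1 and 0, here and in each of 3 classes of abundance. The lowest and highest classes kept their order within classes of abundance. Among transcripts over 100 CPM at 60 min, the median log2 change was 1.24 for the 45 with a ratio under −4 and −0.25 for the 179 with a ratio over 1. Among those between 20 and 100 CPM it was 0.99 for 28 and −0.24 for 758. Under 20 CPM, the lowest class with at least 20 transcripts was that between −4 and −2, where it was 0.45 for 135, against −0.27 for 526 with a ratio over 1. Without the 9 largest gains, 75 transcripts with a ratio under −4 remained and their median was 0.96.

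The replicates did not bear out this order equally, and it was reversed between 360 min replicate 2 and 0 min replicate 1. For the 81 transcripts with the fewest footprints, the median difference in log2(CPM + 1) was 1.02 and 2.25 for 360 min replicate 1 against 0 min replicates 1 and 2. For 360 min replicate 2 it was 0.01 and 1.49. In the class with a ratio over 1 it was −0.24 and −0.60 for 360 min replicate 1. For 360 min replicate 2 that class stood at 0.08 and −0.23, the first of these above the 0.01 of the 81. Within the 81, the 0 min replicates themselves differed by −1.20 (replicate 2 minus replicate 1), which is as large as the fitted median difference between times. The 360 min replicates differed by −0.87. In the class over 1 these replicate differences were 0.28 at 0 min and 0.32 at 360 min, so the 2 classes also differed between replicates. The summed share of the 81 was 7.93% and 3.19% at 0 min, 4.17% and 4.84% at 60 min, and 13.97% and 14.5% at 360 min. That sum did not overlap between the times. For the 75 without the largest gains it was 3.69% and 1.75% at 0 min and 5.03% and 5.35% at 360 min, which did not overlap either. Without 0 min replicate 1 the fitted median log2 change was 2.01, and without 360 min replicate 1 it was 0.60. Among the 100 most abundant transcripts at 60 min, 11 had a ratio under −4, and for these the 4 differences between a 360 min and a 0 min library had medians of 1.10 to 2.58. Of the 11, 6 were also among the 9 largest gains, which the contrast itself chose, so nothing is read from the shares that follow. The times did not overlap upward for 9 of the 11 (81.8%) and for 9 of the other 89 (10.1%), beside 19.8% of all tested transcripts. They did not overlap downward for 0 of the 11 and for 11 of the 89 (12.4%), beside 19.1% of all.

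Footprints of the 479 and 386 transcripts gave a second readout. Of the 479 higher mRNAs 381 were also tested in RPF, and their RPF libraries separated upward for 24.4% and downward for 5.25%, against 13.8% and 13.3% of all transcripts tested in both assays. Their median RPF log2 change was 0.25, where their median mRNA log2 change was 1.28. Of the 386 lower mRNAs 360 were tested in RPF, which separated downward for 15.8% and upward for 13.3%, shares near the background. Their median RPF log2 change was −0.05 against −1.64 in mRNA. In RPF 0 of 9653 transcripts had an edgeR adjusted p under 0.05 at 360 against 0 min, with 377 at an unadjusted p under 0.05 and 1 called by DESeq2.

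The transcripts with the smallest p-values were of moderate abundance. The 15 higher ones with the smallest unadjusted p, at a mean of at least 10 CPM and with times that did not overlap, had mean levels of 3.94 to 113 CPM at 0 min and 48.5 to 527 CPM at 360 min, and log2 changes of 1.73 to 3.51. Footprints could be tested for 9 of them and separated upward for 2, where 13.8% of all transcripts tested in both assays did so. The 15 lower ones had mean levels of 21.4 to 87.4 CPM at 0 min and 0 to 20.99 CPM at 360 min, and fitted log2 changes of −6.96 to −1.68, of which the most negative depend on the prior count where a library held 0 counts. Footprints could be tested for 14 and separated downward for 4, where 13.3% of all transcripts tested in both assays did so. Counts this small are not read against those shares. None of the 30 had an edgeR adjusted p under 0.558.

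ENST00000433844 had the smallest p-value of the higher transcripts. Its mRNA level was 27.0 and 20.4 CPM at 0 min, 12.7 and 12.95 CPM at 60 min, and 104 and 160 CPM at 360 min, from 11 to 90 counts a library. It was low at 0 and 60 min and high in both libraries of 360 min. The log2 change was 2.47 (SE 0.42), with an unadjusted edgeR p of 0.000231 and an adjusted p of 0.558, which was 0.00446 without a filter on low counts. Leaving out 1 library at a time gave 2.15 to 2.76. Its RPF level was 35.0 and 27.7 CPM at 0 min and 75.5 and 91.6 CPM at 360 min. The RPF groups separated in the same direction, with a log2 change of 1.40 (SE 0.40, edgeR adjusted p = 0.9999). The RPF change minus the mRNA change was −1.11 (SE 0.54, adjusted p = 0.858 in edgeR's interaction test).

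ENST00000396005 had the smallest p-value of the lower transcripts, on few counts. It had 11 and 51 mRNA counts at 0 min, 7 and 8 at 60 min, and 0 and 1 at 360 min, or 14.1 and 74.3 CPM at 0 min and 0 and 1.78 CPM at 360 min. The 0 min replicates differed widely, and both 360 min libraries lay below them. The ratio of the summed 360 min to the summed 0 min level was 0.0257, with an exact 95% interval of 0.000641 to 0.149 for counting error only. The fitted log2 change was −5.14 (SE 1.23), and it was −3.54 without 0 min replicate 2, which held most of the counts, and −8.01 without 360 min replicate 2, where the remaining library held 0 counts and the value depends on the prior count. The edgeR adjusted p was 0.558, and without a filter on low counts it was 0.000747. Its RPF level was 22.1 and 16.6 CPM at 0 min and 12.6 and 33.7 CPM at 360 min, so the RPF groups overlapped. The difference between the RPF and mRNA changes had an adjusted p of 0.858 in edgeR's interaction test.

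**Figure D5:**
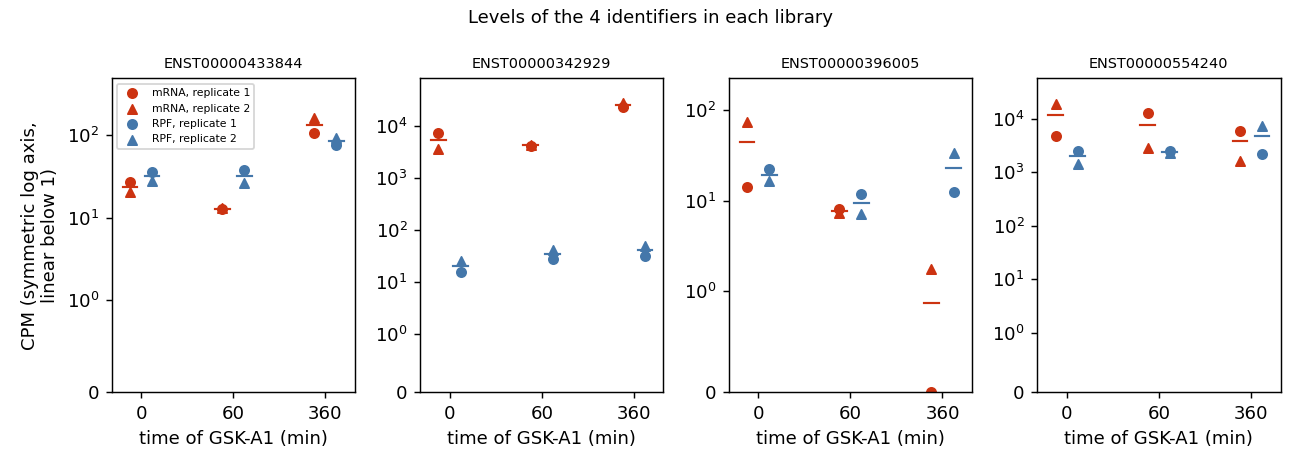
CPM (symmetric log axis, linear below 1) of the 4 printed identifiers at 0, 60 and 360 min in mRNA (red) and RPF (blue), with circles for replicate 1, triangles for replicate 2 and bars for the mean of 2. In mRNA the 360 min libraries lie above the 0 min ones for ENST00000433844 and ENST00000342929, below them for ENST00000396005, and overlap them for ENST00000554240.

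Transcripts listed at only 1 of the compared times held few counts. Both 360 min libraries listed 76 transcripts that neither 0 min library listed, with at most 7 counts summed over the 360 min pair. In the opposite direction 586 were listed in both 0 min libraries and in neither 360 min library, with a median of 4 and at most 31 summed counts. The 360 min libraries were the shallower ones. Thinned to 429026 counts, the depth of the shallowest mRNA library, the libraries would list 14340 and 15122 transcripts at 0 min, 15104 and 14170 at 60 min, and 14233 and 13779 at 360 min. The 360 min libraries listed fewer transcripts than either 0 min library at that depth, while 60 min replicate 2 listed fewer than 360 min replicate 1.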

How the data were processed

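Each library's deposited table lists Ensembl transcripts with their raw count; the values are whole and not normalized by the authors. The submitters' processing notes name cutadapt 2.8, Bowtie 1.2.3 and STAR 2.7.10a without their roles. The counting program, genome build, annotation, counted region and use of strand are not given in the sources used here, so counts of near-identical or overlapping transcripts are uncertain. Transcripts absent from a file were set to 0.

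The tests used edgeR 4.0.16 under R 4.3.3 (filterByExpr, trimmed-mean scaling, quasi-likelihood test of all 6 mRNA libraries with time as factor). Adjusted p-values are Benjamini-Hochberg values over every transcript tested. RPF libraries were fitted likewise, and the interaction of assay and time over all 12. An SE is a fitted change over the root of its F statistic, and CPM uses scaled totals. DESeq2 1.42.0 was an alternative. The pipeline was tested on simulated data. Totals ran from 429026 to 1002695 counts in mRNA. The statistic per degree of freedom of a chi-square test between replicates was 14.9 at 0 min and 10.3 at 360 min, so no library was counted as a duplicate.

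Members and lists were chosen with earlier results of these data known. The naming rule allowed 2 higher and 2 lower identifiers where no symbol was at hand; which 2 was settled with the values known. The 37 gene lists (809 symbols) and the marker list could not be matched and were not evaluated. Whether the same replicate number marks paired libraries was not settled. Deviations of same-numbered libraries correlated at −0.371 (0 and 60 min), −0.0594 (0 and 360 min) and 0.334 (60 and 360 min). The main fit takes no pairing into account.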

Additional observations from a re-analysis of the deposited data

How the results depend on the processing

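For mRNA at 360 against 0 min, 0 transcripts passed an adjusted p of 0.05 as first computed and in 11 of 13 alternatives; without a filter on low counts 89 passed (37 higher, 52 lower) and under DESeq2 19. The number at an unadjusted p under 0.05, 865, was 1491 without a filter, 453 with at least 10 counts in each library (4946 tested), 547 under DESeq2 and 408 (without 0 min replicate 2) to 1187 (without 360 min replicate 1) when 1 library was left out. The percentage higher among them, 55.4%, was 30.4% with library totals alone, 46.5% with upper-quartile scaling, 39.4% without a filter, 63.4% with at least 10 counts and 42.0% to 59.8% when 1 library was left out. With the replicate block, 732 transcripts were at an unadjusted p under 0.05 and 0 passed the adjusted threshold. The block gave 2 calls in RPF at 360 against 0 min, where DESeq2 gave 1, and 17 passed in mRNA at 60 against 0 min without a filter; a block with the 0 min numbers crossed, added after seeing the data because of the negative correlation of 0 and 60 min deviations, gave 0 there.

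The difference in share of the 100 most abundant transcripts, 2.16 points, was −2.24 when ranked by RPF at 0 min and −1.21 to 5.54 when 1 library was left out, the negative value coming without 360 min replicate 1. For 10 transcripts, −0.394 became 4.69 when ranked on the 4 compared libraries and 0.225 by RPF; for 30, 300 and 1000 transcripts the RPF ranking gave −0.818, −5.35 and −6.88. The median log2 change of transcripts with the fewest footprints per mRNA, 1.09, was 0.60 to 2.01 when 1 library was left out and kept its sign in all 13 alternatives, which were added after seeing the data. The summed gain of the 9 transcripts was 7.30 to 10.1 points when 1 library was left out. The 9 were kept as chosen on all 4 compared libraries and not chosen again, so this range does not test the gain. The log2 changes of the 4 identifiers kept their direction in 50 of 50 alternatives. The contrast itself chose these identifiers and the alternatives reuse its counts, so nothing is read from that agreement. ENST00000396005 was not tested with at least 10 counts in each library or with the 4 compared libraries alone. Of the 50, 3 passed an adjusted p of 0.05: ENST00000342929 under DESeq2 (0.0153), and without a filter ENST00000433844 (0.00446) and ENST00000396005 (0.000747). DESeq2 gave no adjusted p for ENST00000433844 and ENST00000396005. The causes of these shifts were not tested. Each time had 2 libraries, and the coefficient of variation between replicates was 37.3%.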
